A study of Mus musculus with 11 samples.

Results

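The genes of folliculin, its FNIP partners and the mTORC1 pathway were followed in the hearts of 11 mice. They are 10 genes, Fnip1, Fnip2, Flcn, Mtor, Rptor, Mlst8, Deptor, Tsc1, Tsc2 and Rheb, of the 22608 genes in the table, and all 10 passed the filter on low counts. They were picked by name, and the choice was made with earlier results of these data known: the values of Fnip2 when CD VEH was compared with WT VEH, and CD JZL184 with CD VEH, had drawn attention to it. The differences between these groups are therefore given as a description, without a p-value.

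The samples were labelled as ventricles, and the study used male mice aged 8 to 16 weeks. Its methods describe removal of atria and large vessels for heart samples used for PCR and do not state it for these libraries. CD mice carry the complete deletion of the Williams-Beuren syndrome interval on 1 copy of chromosome 5 in every cell, so any gene outside the interval, including the 10 genes here, keeps both copies. The strain label was WBS-CD for CD mice and C57BL/6 for WT mice, and per the methods CD mice were kept on a C57BL/6J background with WT littermates as controls. JZL184, an inhibitor of monoacylglycerol lipase, the enzyme that breaks down the endocannabinoid 2-AG, was injected intraperitoneally at 8 mg/kg for 10 days. The groups were WT VEH (2 mice), WT JZL184 (3), CD VEH (3) and CD JZL184 (3), and the treatment field of the labels calls the VEH mice untreated while their titles give vehicle. Mice are named by the letter of their column, which was not taken to pair mice between groups. Each column was taken as 1 mouse, and p-values measure the spread between these samples.

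mTORC1 is a protein kinase complex at the lysosomal surface that promotes protein synthesis and cell growth and holds back autophagy. The small GTPase Rheb switches it on, and the complex of Tsc1 and Tsc2 switches Rheb off. Folliculin, bound to Fnip1 or Fnip2, acts on the Rag GTPases that bring mTORC1 to the lysosome when amino acids are present, and through them controls the transcription factors Tfeb and Tfe3. In the heart the pathway is known for its part in growth of the muscle and in hypertrophy. The values below are mRNA levels and do not measure the activity of the kinase.

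The bases before the start of Fnip1 in the promoter table used here are shown because they hold a motif that bears on the pathway. The sequence comes from the RefSeq promoter table (GRCm38.p6), 5′ to 3′ on the strand of the gene, with CACGTG in capitals. This motif reads the same on both strands and is the core of the element that Tfeb and its relatives bind. The window is shown up to the end of the motif. The RefSeq gene model, by its predicted transcripts, starts at base 54438107, inside the motif, so the last bases shown lie in that model.

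Fnip1 (chr11:54437929-54438109, plus strand): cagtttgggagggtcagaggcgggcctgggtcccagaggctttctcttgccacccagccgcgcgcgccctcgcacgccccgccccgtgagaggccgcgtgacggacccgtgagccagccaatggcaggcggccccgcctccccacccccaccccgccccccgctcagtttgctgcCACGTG

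The table matched 9 of the 10 genes, and Deptor is named only. CACGTG was found in the windows of Fnip1 and Rheb and in none of the other 7. It began 75 bases before the start of Fnip1 in the table and 95 bases before the GENCODE start. Its first base is 54438104, so it spans the start of the RefSeq gene model of Fnip1 at 54438107. In Rheb it began 96 bases before the start in the table, but the GENCODE gene starts farther out and holds the whole window, so the same match lies 167 bases after that start. By GENCODE, 5 of the 9 windows lie wholly outside the gene. The search ran to 50 bases after the start, and in windows of that length 7.15% of 32851 promoters hold CACGTG. The longer motif TCACGTG, which contains it and was searched on both strands, matched in the same 2 genes and is in 3.77% of promoters. A match is a description of the letters and not a binding site.

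The libraries held 69660329 to 92251550 estimated counts each, and 36.4% to 46.6% of them came from the mitochondrial genome. That share was 39.4% to 41.2% in WT VEH, 45.0% to 46.6% in WT JZL184, 43.5% to 44.7% in CD VEH and 36.4% to 40.1% in CD JZL184. The genotype labels were checked with genes of the deleted interval: Gtf2i was at 95.0 to 129 CPM (counts divided by the library size, with TMM factors, and put on a shared total) in WT mice and 51.1 to 68.1 in CD mice, and Baz1b and Eln did not overlap between the genotypes either. All 8 markers of ventricular cardiomyocytes passed the filter. The atrial markers Myl7 and Sln and all 11 adipocyte and skeletal muscle markers stayed below it, with Myl7 at up to 0.520 CPM and Sln at up to 0.188 CPM.

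Within the folliculin group, Fnip1 (chromosome 11, 54438199 to 54518235, GRCm38) had 59.2 and 60.6 CPM in WT VEH mice C and D. In CD VEH it had 46.0, 48.4 and 40.0 CPM in mice A, C and E, in WT JZL184 53.7, 38.5 and 50.1 CPM in mice A, B and D, and in CD JZL184 64.3, 58.0 and 56.6 CPM in mice A, C and E. All CD VEH and all WT JZL184 mice were below both WT VEH mice, while the CD JZL184 mice lay on either side of them.

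Fnip2 (chromosome 3, 79455974 to 79567796), the second folliculin partner, had 32.7 and 26.4 CPM in WT VEH and 14.0, 12.6 and 11.9 CPM in CD VEH. It had 22.4, 16.8 and 20.2 CPM in WT JZL184 and 20.1, 18.6 and 40.5 CPM in CD JZL184. CD VEH was the lowest group with no overlap with any other, and CD JZL184 was split, with mouse E above every other mouse of the study and mice A and C within the range of WT JZL184. The mean of CD JZL184 was 26.4 ± 12.3 CPM (SD, n = 3), a coefficient of variation of 46.4% against 8.37% in CD VEH (n = 3).

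Flcn (chromosome 11, 59791408 to 59810016), which encodes folliculin, had 50.5 and 53.8 CPM in WT VEH and 49.0, 43.8 and 43.3 CPM in CD VEH. It had 48.0, 37.4 and 47.5 CPM in WT JZL184 and 52.7, 47.8 and 59.7 CPM in CD JZL184. As in Fnip1, all CD VEH and WT JZL184 mice were below both WT VEH mice, but here CD JZL184 overlapped CD VEH and WT JZL184.

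The kinase Mtor (chromosome 4, 148448611 to 148557683) had 48.5 and 43.0 CPM in WT VEH, 33.7, 41.8 and 32.9 CPM in CD VEH, 36.4, 36.4 and 37.8 CPM in WT JZL184, and 46.6, 45.5 and 50.9 CPM in CD JZL184. Rptor (chromosome 11, 119602905 to 119899576), the subunit that recruits substrates, had 29.0 and 28.4 CPM in WT VEH and 21.9, 25.4 and 22.3 CPM in CD VEH. Its values were 22.6, 21.4 and 24.2 CPM in WT JZL184 and 29.5, 30.5 and 29.4 CPM in CD JZL184. In both genes every mouse of CD VEH and WT JZL184 was below every mouse of WT VEH and CD JZL184.

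Mlst8 (chromosome 17, 24473551 to 24479078), the small subunit that mTORC1 shares with mTORC2, ranged from 10.5 to 12.0 CPM over the 11 mice. Deptor (chromosome 15, 55112317 to 55259271), an inhibitor bound to the complex, ranged from 13.4 to 17.3 CPM and was highest in CD JZL184, where each of the 3 mice was above all mice of the other groups. Mlst8 overlapped between every pair of groups.

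Tsc1 (chromosome 2, 28641228 to 28691167) had 36.8 and 38.4 CPM in WT VEH, 29.7, 31.7 and 27.3 CPM in CD VEH, 32.9, 27.4 and 32.0 CPM in WT JZL184, and 38.4, 37.9 and 38.9 CPM in CD JZL184. Tsc2 (chromosome 17, 24595816 to 24632630), the partner that carries the activity against Rheb, had 73.8 and 78.2 CPM in WT VEH and 57.9, 72.2 and 58.9 CPM in CD VEH. It had 65.1, 62.9 and 67.4 CPM in WT JZL184 and 78.6, 76.8 and 81.3 CPM in CD JZL184. As for Mtor and Rptor, no mouse of CD VEH or WT JZL184 reached WT VEH or CD JZL184, and CD VEH mouse C was close to WT VEH mouse C in Tsc2.

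Rheb (chromosome 5, 24802823 to 24842624, outside the deleted interval), the target of this inhibition, ranged from 52.7 to 61.2 CPM over all mice. It was 55.9 and 56.0 CPM in WT VEH, 55.9 to 61.2 CPM in CD VEH and 53.7 to 54.8 CPM in CD JZL184. WT JZL184 mice A, B and D had 60.1, 52.7 and 53.0 CPM. CD JZL184 lay below WT VEH and CD VEH without overlap, but WT JZL184 mice B and D were lower still.

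**Figure D1:**
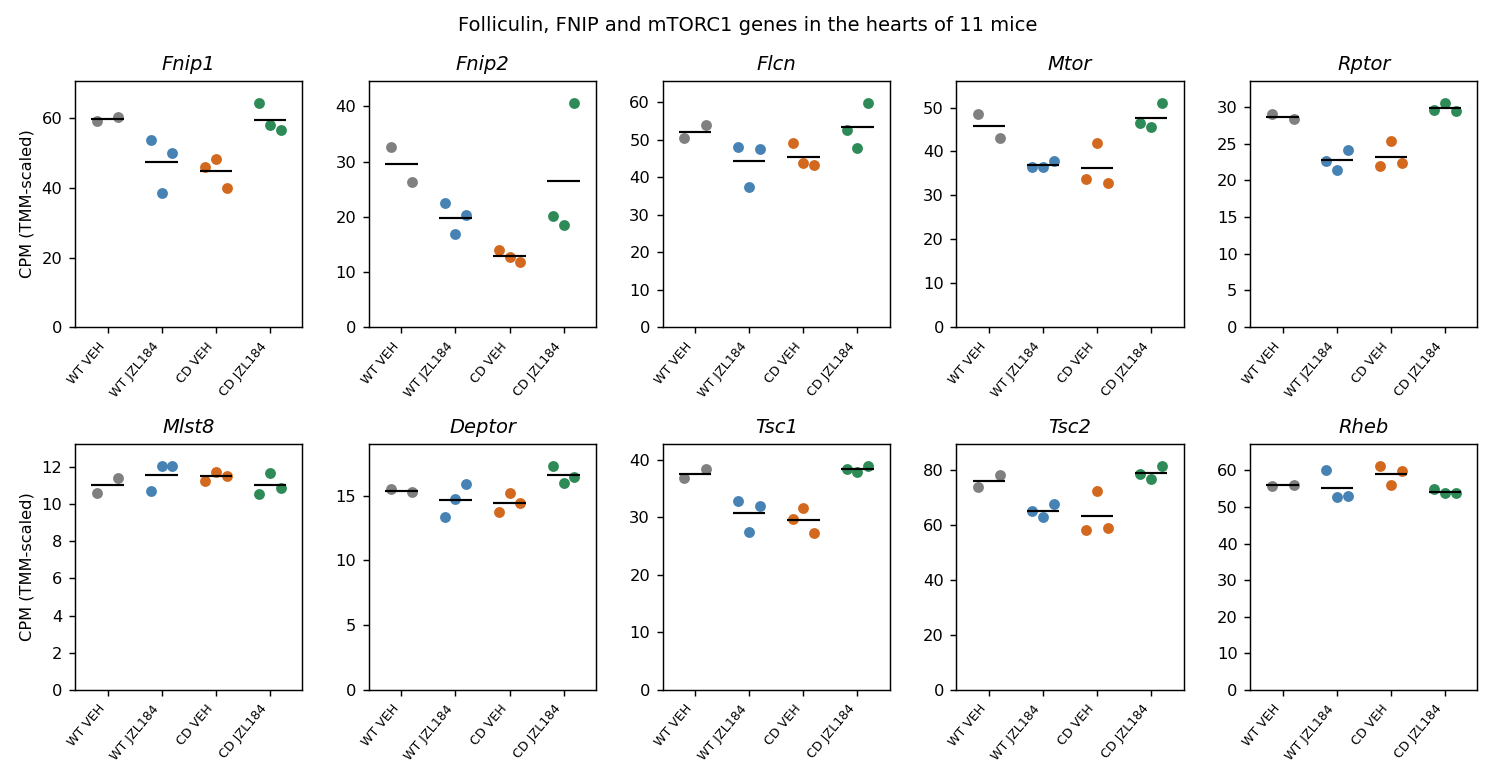
CPM of each gene in each mouse (points) with the group mean (line), by genotype and treatment. Fnip1, Mtor, Rptor, Tsc1 and Tsc2 are lower in every CD VEH and WT JZL184 mouse than in either WT VEH mouse, Fnip2 in CD JZL184 is spread from 18.6 to 40.5 CPM, and Rheb lies between 52.7 and 61.2 CPM.

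Levels of different genes were compared per kb of the union of their exons. Flcn was highest, at 11.2 ± 1.36 CPM per kb (SD over the 11 mice). Fnip1, Tsc2 and Rheb followed at 7.35, 7.31 and 7.26 CPM per kb, and their ranges overlapped each other. Flcn overlapped Fnip1 too. Mtor, at 4.08 CPM per kb, was below Rheb without overlap. Tsc1, Fnip2 and Mlst8 were next, at 2.85, 2.57 and 2.55 CPM per kb and with overlapping ranges, and then Rptor and Deptor at 1.92 and 1.72 CPM per kb. Rptor did not overlap Tsc1 or Mlst8, but Fnip2, from 1.42 to 4.85 CPM per kb, overlapped Rptor, Deptor and Mtor. The highest and lowest mean differed 6.52-fold. Per kb of the longest transcript the order changed, with Rheb first at 13.9 and Flcn second at 13.6 CPM per kb.

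**Figure D2:**
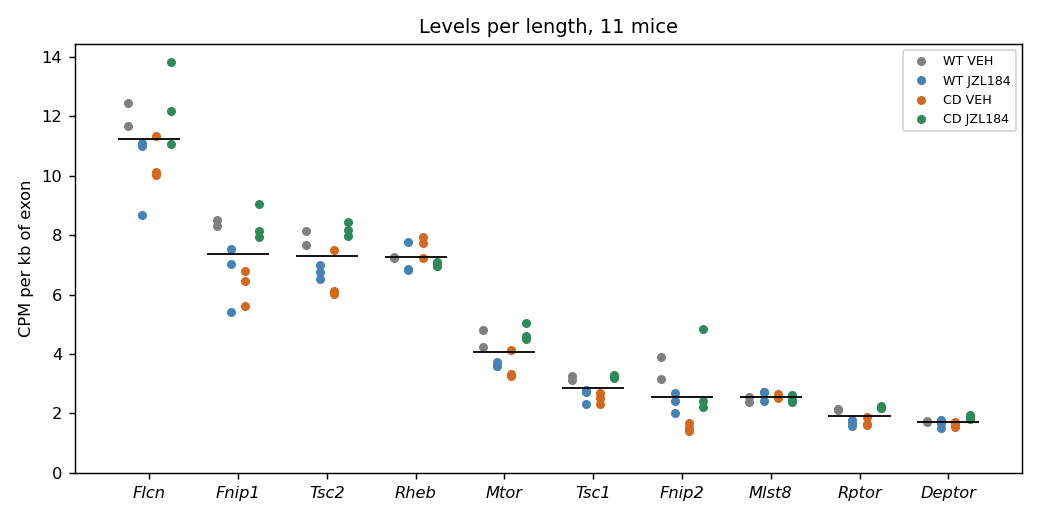
CPM per kb of exon for each gene in the 11 mice, coloured by group, with the mean over mice as a line. Flcn is at the top with 11.2 CPM per kb, Fnip1, Tsc2 and Rheb are close together, and Deptor is lowest at 1.72 CPM per kb.

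The share of Fnip2 in the sum of both FNIP mRNAs, per kb, was 25.2% ± 5.85 (SD, n = 11). It was 32.0% and 27.0% in the WT VEH mice and 26.2%, 27.1% and 25.6% in the WT JZL184 mice. The CD VEH mice had 20.6%, 18.2% and 20.2%, and the CD JZL184 mice 21.0%, 21.4% and 37.9%. Fnip1 thus gave most of the FNIP mRNA in every mouse, and the share was lower in each CD VEH mouse than in any other mouse.

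In CD VEH against WT VEH, 6 of the 10 genes were lower at an adjusted p under 0.05 in edgeR's quasi-likelihood test (Benjamini-Hochberg over 11319 genes) and 0 were higher. Of all tested genes, 15.4% were lower and 15% higher, and since this comparison was known when the genes were picked, nothing is read from the count. The log2 fold changes were -1.20 (SE 0.27) for Fnip2, -0.42 (SE 0.12) for Fnip1, -0.35 (SE 0.08) for Tsc1, -0.34 (SE 0.10) for Mtor, -0.30 (SE 0.08) for Rptor and -0.27 (SE 0.09) for Tsc2. Flcn had -0.20 (SE 0.12) and Deptor -0.09 (SE 0.08), while Mlst8 and Rheb had 0.06 (SE 0.08) and 0.08 (SE 0.07). The median was -0.29, against 0.01 over all tested genes. The count was 3 without CD VEH mouse A, 3 without CD VEH mouse E, 0 without WT VEH mouse C and 1 without WT VEH mouse D, where the lone control was assumed to vary like the other groups. With an offset for gene length it was 1. Of 20 alternatives, the call of Tsc2 held in 10 and those of the other called genes in 15 to 19.

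In CD JZL184 against CD VEH, 7 of the 10 genes were higher and 0 lower, beside 16.8% higher and 17% lower of all tested genes, a comparison that was also known. Fnip2 had a log2 fold change of 1.04 (SE 0.24), which was 0.59 without CD JZL184 mouse E. Fnip1 had 0.41 (SE 0.11), Mtor 0.40 (SE 0.09), Tsc1 0.38 (SE 0.08), Rptor 0.36 (SE 0.07), Tsc2 0.32 (SE 0.08) and Deptor 0.20 (SE 0.07). Deptor was near the threshold and was called in 9 of 20 alternatives, and its call was lost without any 1 of the CD JZL184 mice, CD VEH mice A or E or either WT VEH mouse, and with the length offset, upper-quartile factors, no filter on low counts or no mitochondrial genome. Flcn, at 0.23 (SE 0.10), was not called, nor were Mlst8 at -0.06 (SE 0.07) and Rheb at -0.12 (SE 0.06). Both of these comparisons use the CD VEH mice, so low values in these 3 mice enter each of them.

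In WT JZL184 against WT VEH, the effect of the inhibitor in mice without the deletion was tested. The WT JZL184 mice took no part in the choice of the genes, and the WT VEH mice took part through 1 of the known comparisons. High values in the WT VEH mice would push both comparisons down, so the adjusted p-values here are not independent of the choice. Mtor, Rptor and Tsc1 fell, 3 of 10 genes and 0 upward, beside 14% that fell and 15.4% that rose among all tested genes. On the log2 scale Rptor had -0.34 (SE 0.08, edgeR adjusted p = 0.00924), Mtor -0.31 (SE 0.10, edgeR adjusted p = 0.0363) and Tsc1 -0.29 (SE 0.08, edgeR adjusted p = 0.0249), each lower in 3 of 3 treated mice than in both controls. Of 20 alternatives, the call held in 17 for Rptor, 15 for Tsc1 and only 12 for Mtor.

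Fnip2 had -0.57 (SE 0.27, edgeR adjusted p = 0.122), Fnip1 -0.33 (SE 0.12, edgeR adjusted p = 0.0596), Flcn -0.23 (SE 0.12, edgeR adjusted p = 0.143) and Tsc2 -0.22 (SE 0.09, edgeR adjusted p = 0.0768). These 4 did not pass the test. In each, 3 of 3 treated mice were below both controls. How many of all tested genes separate in this way was not counted, so nothing is read from such separations here or in other comparisons. Mlst8, Deptor and Rheb had 0.07, -0.07 and -0.02. The median was -0.26, against -0.00264 over all tested genes. The count was 0 without either WT VEH mouse, 1 without WT JZL184 mouse B and 0 with an offset for gene length, which ended all 3 calls. The exon models of the 10 genes had a median of 8619 bases against 4667 over the tested genes. Those of Flcn and Mlst8, at 4322 and 4435 bases, were below the latter.

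In CD JZL184 against WT JZL184, which compared the genotypes under treatment, 5 of 10 genes were higher and 0 lower in CD mice, beside 18.2% higher and 20.1% lower among all tested genes. The CD JZL184 mice took part in 1 of the known comparisons. High values in these mice would push both comparisons up, so the adjusted p-values here are not independent of the choice either. Rptor was higher by 0.39 on the log2 scale (SE 0.07, edgeR adjusted p = 0.00177), Mtor by 0.37 (SE 0.09, edgeR adjusted p = 0.00796), Fnip1 by 0.33 (SE 0.11, edgeR adjusted p = 0.0349), Tsc1 by 0.32 (SE 0.08, edgeR adjusted p = 0.00714) and Tsc2 by 0.28 (SE 0.08, edgeR adjusted p = 0.0179). In each of the 5, 3 of 3 CD mice were above every WT JZL184 mouse.

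Fnip2 differed by 0.41 (SE 0.24, edgeR adjusted p = 0.191) with 1 of 3 CD mice above every WT mouse, and by -0.03 without CD JZL184 mouse E. Flcn differed by 0.27 (SE 0.10, edgeR adjusted p = 0.0603) and Deptor by 0.18 (SE 0.07, edgeR adjusted p = 0.067), and neither passed. Mlst8 and Rheb had -0.07 and -0.03. The median was 0.30, against 0.000282 over all tested genes. The count was 3 without CD JZL184 mouse E and 3 without WT JZL184 mouse B. Fnip1 was not called without any 1 of the 3 CD JZL184 mice or without WT JZL184 mouse B, and Tsc2 was not called without CD JZL184 mouse E, without WT JZL184 mouse B or with the length offset.

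In CD JZL184 against WT VEH, 0 of 10 genes were called by edgeR, 0 had an unadjusted p under 0.05 and 0 were called by DESeq2. Only 0.186% of all tested genes were called in either direction. The log2 fold changes ran from -0.16 (SE 0.27) in Fnip2 to 0.11 (SE 0.08) in Deptor. This comparison shares both groups with those that were known, and a missed threshold does not show that the groups are equal.

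**Figure D3:**
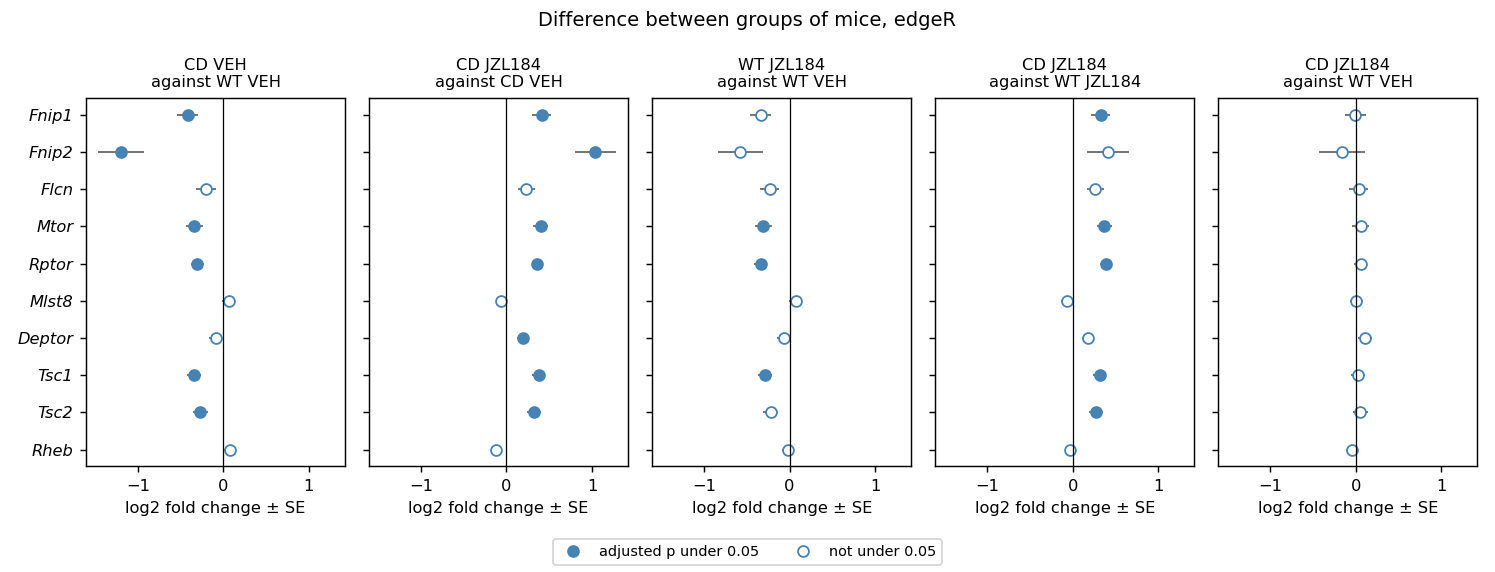
Log2 fold change with its SE for each gene in 5 comparisons between groups of mice; filled points have an edgeR adjusted p under 0.05. The first 2 comparisons were known when the genes were picked, and comparisons that share a group share its mice. Rheb runs from -0.12 in CD JZL184 against CD VEH to 0.08 in CD VEH against WT VEH, and Fnip2 has the largest SE.

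The effect of JZL184 in CD mice minus that in WT mice was called positive in 7 of 10 genes and called negative in 0, beside 25.3% called positive and 26.2% called negative among all tested genes. It holds the known comparisons, so no p is given. It was 1.61 on the log2 scale (SE 0.36) for Fnip2, 0.75 (SE 0.16) for Fnip1, 0.71 (SE 0.13) for Mtor, 0.70 (SE 0.10) for Rptor, 0.66 (SE 0.11) for Tsc1, 0.55 (SE 0.12) for Tsc2 and 0.47 (SE 0.16) for Flcn. Deptor, at 0.27 (SE 0.11), was not called, nor were Mlst8 at -0.13 (SE 0.10) and Rheb at -0.11 (SE 0.09). With 1 mouse left out at a time the count was 6 to 8, with the length offset it was 7, and Flcn was the gene lost, without CD JZL184 mouse E, CD VEH mouse E or WT VEH mouse D.

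**Figure D4:**
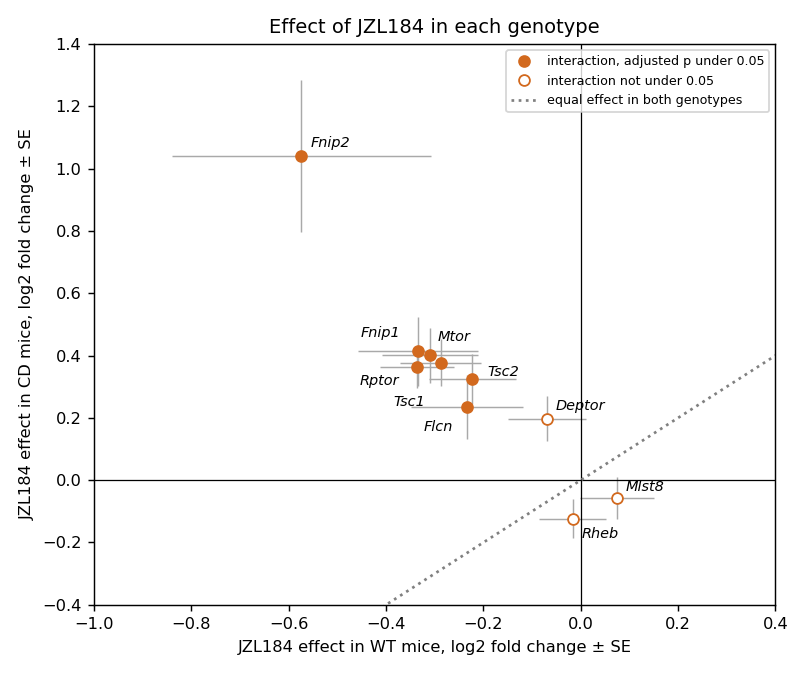
Log2 fold change of JZL184 in WT mice (x axis) and in CD mice (y axis) for each gene, with the SE of each; the dotted line marks equal effects. The 7 filled genes have a difference of effects at an adjusted p under 0.05 and lie above the line, to the left of 0 in WT mice and above 0 in CD mice.

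Other measures moved with the same pattern of groups. The summed CPM of 6 endothelial markers, all of which passed the filter, was 532 to 538 in WT VEH, 816 to 842 in WT JZL184, 676 to 749 in CD VEH and 522 to 609 in CD JZL184. That of 5 of 5 smooth muscle and pericyte markers was 575 to 581, 827 to 893, 788 to 908 and 560 to 574 in the same order. That of 6 of 6 fibroblast markers was 710 to 727, 851 to 1064, 826 to 954 and 651 to 757, and that of 6 of 6 macrophage and leukocyte markers was 86.7 to 91.2, 109 to 176, 115 to 142 and 80.2 to 90.7. These lists were high in CD VEH and WT JZL184, where the group means of the 10 genes other than Mlst8 and Rheb were below those of both remaining groups.

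The 8 ventricular cardiomyocyte markers summed to 45172 to 45258 CPM in WT VEH, 32498 to 42263 in WT JZL184, 37247 to 40415 in CD VEH and 41602 to 44090 in CD JZL184. The 5 erythroid markers summed to 18786 CPM in CD VEH mouse A and to 1416 to 5498 CPM in the other 10 mice. Nppa, the only atrial marker that passed the filter, was at 49.1 to 220 CPM. The part of these lists in the results was not tested. The counts of called genes, which were 6, 7, 3, 5, 0 and 7 in the comparisons as ordered above, were 6, 6, 3, 5, 0 and 7 when the mitochondrial genome was left out and 1, 7, 0, 5, 0 and 7 with the offset for gene length. With that offset the 7 in CD JZL184 against CD VEH held Rheb, lower at -0.20, in place of Deptor, and the 5 in CD JZL184 against WT JZL184 held Flcn, higher at 0.30, in place of Tsc2. In whole tissue, fewer cells of a type and less RNA per cell cannot be told apart.

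Over the 11 mice, pairs of the genes were correlated as a description, since the mice share their groups. Pearson's r in log2 CPM was highest for Tsc1 and Fnip1, at 0.963, followed by Tsc2 and Mtor at 0.947, and lowest for Rheb and Deptor at -0.758. Fnip2 and Fnip1 had 0.660, and Rheb and Flcn had -0.000477. Among 7572 genes with a mean of at least 10 CPM, those most like Fnip2 were Mfsd11 (0.953), Rnf144b (0.944), Fat1 (0.941), Slf2 (0.938) and Cltc (0.931), the last the heavy chain of clathrin. With group means subtracted they were Rassf8 (0.935), Mgat5 (0.932), Fam78a (0.910), Usp36 (0.909) and Txndc11 (0.909), and different genes lead that order.

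The wider pathway was taken from 7 lists of 94 genes, 86 of which were tested. In WT JZL184 against WT VEH, 6 rose and 13 fell beside 15.4% and 14% of all tested genes, with a median of -0.07 against -0.00264. These 19 calls were 5 without WT VEH mouse C, 6 without WT VEH mouse D, 11 when WT VEH and WT JZL184 were fitted alone and 29 without WT JZL184 mouse A. In CD JZL184 against WT JZL184, 19 were higher and 9 lower, beside 18.2% and 20.1%, with a median of 0.08 against 0.000282, and the 28 calls were 18 without CD JZL184 mouse E. The counts were 9 and 16 for CD VEH against WT VEH (all genes 15% and 15.4%), 24 and 7 for CD JZL184 against CD VEH (16.8% and 17%), and 0 and 0 for CD JZL184 against WT VEH (0.186% in either direction). The 25 calls of the first were 5 and 11 without WT VEH mouse C or D and 14 and 15 without CD VEH mouse A or E, and the 31 of the second were 17 and 16 without CD VEH mouse A or E and 18 without CD JZL184 mouse E. The difference of the JZL184 effects was called positive in 31 and called negative in 10 (25.3% and 26.2%). The counts of each list below stand beside these same percentages, and nothing particular to a list is read from them. The genes named from the lists were picked because they were called in WT JZL184 against WT VEH with the largest folds and without overlap between these groups, so their values in that comparison describe the choice. CD JZL184 against WT JZL184 uses the same WT JZL184 mice, so it is no separate support for them.

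The Rag GTPases and Ragulator hold mTORC1 at the lysosome. In WT JZL184 against WT VEH, Lamtor4 and Lamtor5, small Ragulator subunits, rose by 0.27 (SE 0.06, edgeR adjusted p = 0.0095) and 0.32 (SE 0.08, edgeR adjusted p = 0.0118), and Rragd, a Rag GTPase that folliculin acts on, fell by 0.40 (SE 0.10, edgeR adjusted p = 0.0139), so 2 of 9 tested genes rose and 1 fell, beside 15.4% and 14% of all genes. Rragd had 123 and 125 CPM in WT VEH and 108, 91.0 and 82.4 CPM in WT JZL184. Without either WT VEH mouse all 3 calls were lost, and with the length offset those of Lamtor4 and Lamtor5 were. In CD mice against WT mice under JZL184 both Lamtor genes were lower, at -0.25 (SE 0.05, edgeR adjusted p = 0.00524) and -0.33 (SE 0.07, edgeR adjusted p = 0.00404), calls that the length offset ended, and Rragd had 0.18 (SE 0.09, edgeR adjusted p = 0.136).

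Of 16 tested GATOR, KICSTOR and amino acid sensor genes, 0 rose and 2 fell in WT JZL184 against WT VEH, beside 15.4% and 14% of all genes. Depdc5, a subunit of the complex that inhibits the Rag GTPases, had -0.26 (SE 0.08, edgeR adjusted p = 0.0275), and its call did not hold without either WT VEH mouse or with the length offset. Between the treated groups, 6 were higher and 1 lower in CD mice, beside 18.2% and 20.1% of all genes. Among 7 mTORC2 and assembly genes, 2 fell under JZL184 in WT mice, beside 14% of all genes, among them Tti1 at -0.39 (SE 0.11, edgeR adjusted p = 0.0215), a call lost without either WT VEH mouse or WT JZL184 mouse B.

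Among 14 insulin and stress inputs, 2 rose and 3 fell in WT JZL184 against WT VEH, beside 15.4% and 14% of all genes. Insr, the insulin receptor, and Pik3r1, the regulatory subunit of PI3-kinase, fell by 0.51 (SE 0.11, edgeR adjusted p = 0.00754) and 0.60 (SE 0.14, edgeR adjusted p = 0.011), calls that were lost without WT VEH mouse C.

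Of 14 mTORC1 substrates and translation outputs, 1 rose and 3 fell in WT JZL184 against WT VEH, beside 15.4% and 14% of all genes. Lpin1, a phosphatidate phosphatase that mTORC1 phosphorylates, was at 163 and 164 CPM in WT VEH and 105, 89.1 and 93.6 CPM in WT JZL184. It was at 102, 122 and 103 CPM in CD VEH and 152, 166 and 152 CPM in CD JZL184. Its log2 fold change was -0.77 in WT JZL184 against WT VEH (SE 0.09, edgeR adjusted p = 0.00107) and 0.71 in CD JZL184 against WT JZL184 (SE 0.08, edgeR adjusted p = 0.000374).

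Larp1, which controls translation of ribosomal protein mRNAs, had -0.42 (SE 0.08, edgeR adjusted p = 0.00488) and 0.41 (SE 0.07, edgeR adjusted p = 0.0019) in the same comparisons. Rps6, the ribosomal protein that the S6 kinases phosphorylate, had 0.39 (SE 0.09, edgeR adjusted p = 0.0098) and -0.42 (SE 0.08, edgeR adjusted p = 0.00237). The first of these was lost without either WT VEH mouse or with the length offset.

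Among the 3 tested MiT/TFE factors, Mitf fell by 0.42 in WT JZL184 against WT VEH (SE 0.12, edgeR adjusted p = 0.0229), a call lost without either WT VEH mouse or WT JZL184 mouse B. The other two, which are named although the rule for named genes did not pick them, were not called: Tfeb had -0.18 (SE 0.08, edgeR adjusted p = 0.122) and Tfe3 had the opposite sign, at 0.29 (SE 0.11, edgeR adjusted p = 0.067) with 3 of 3 treated mice above both controls. In the effect of JZL184 in CD mice minus that in WT mice, given here as values since it contains the comparison that picked Mitf, Tfe3 had -0.41 (SE 0.15), Tfeb 0.36 (SE 0.11) and Mitf 0.72 (SE 0.16). Of 23 tested lysosomal and autophagy targets of these factors, 1 rose and 1 fell in WT JZL184 against WT VEH, beside 15.4% and 14% of all genes. The one that fell was Wipi1, which acts in autophagosome formation, from 92.1 and 91.2 CPM in WT VEH to 69.9, 69.6 and 67.6 CPM in WT JZL184, a log2 change of -0.41 (SE 0.06, edgeR adjusted p = 0.00197). Between the treated groups, 3 of the 23 were higher and 3 lower in CD mice, beside 18.2% and 20.1% of all genes.

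**Figure D5:**
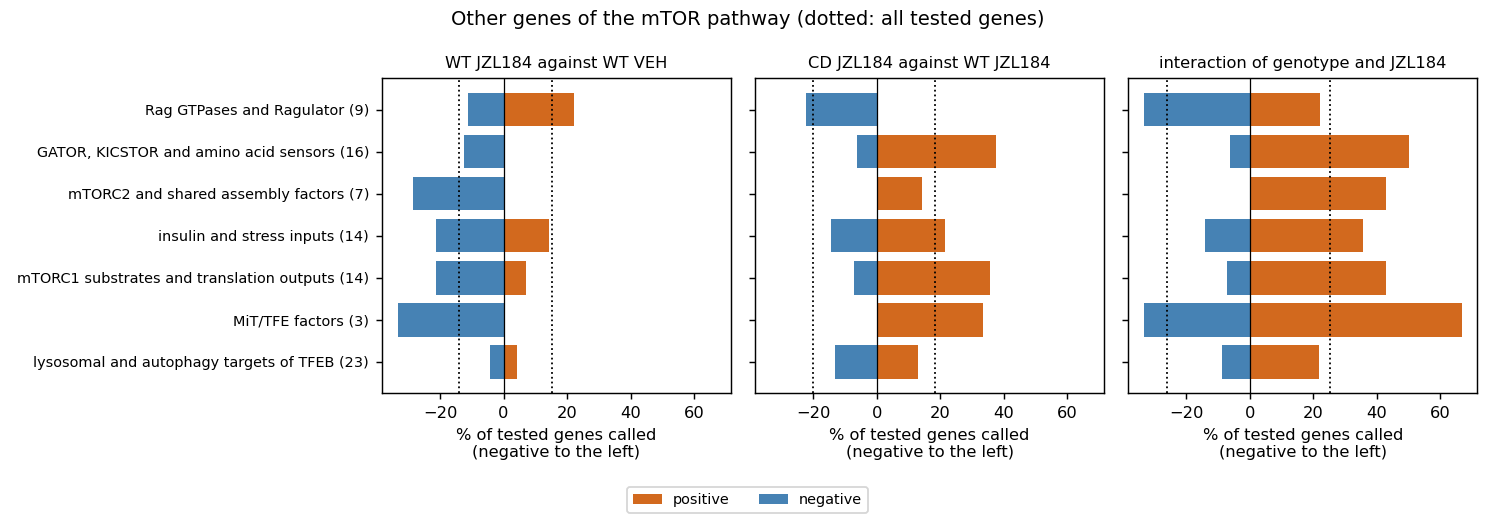
Percentage of the tested genes of each list (number in brackets) called positive (right) or negative (left) at an edgeR adjusted p under 0.05, with the percentage over all 11319 tested genes dotted, in 2 comparisons and in the difference of the JZL184 effects. In the lysosomal and autophagy list, 1 of 23 genes is called in each direction in WT JZL184 against WT VEH.

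The annotation overlaps limit some of the values, since no source used here states the strand setting of the counting. Exons of Tsc2 share 693 bases with Pkd1 on the opposite strand, and Pkd1 had a mean of 67.8 CPM. Mlst8 shares 997 bases with Bricd5 (mean 0.00822 CPM) and Deptor 303 bases with Gm9920 (0.253 CPM). Rptor shares 84 bases with Rptoros, which was not used here.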

How the data were processed

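Ventricle RNA of 11 mice was analysed from the table of estimated counts per gene deposited by the authors, who quantified reads with Salmon 0.7.2 on Ensembl annotation 85 of mm10 and summed transcripts with tximport 1.2.0 and did not normalize them. Columns without a group numbered 0. The authors tested with DESeq2 1.26.0. Here counts were rounded and fitted in R 4.3.3 with edgeR 4.0.16 (limma 3.58.1): a minimum average log2 CPM of 1 (11319 of 22608 genes passed), TMM factors, 1 model of 4 groups without covariates, quasi-likelihood tests, Benjamini-Hochberg adjustment, called at an adjusted p under 0.05. The common biological coefficient of variation was 9.13%. GENCODE mouse release 21 matched 22315 identifiers, 16147 with the same version, and gave symbols, positions and exon lengths.

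The 10 genes and the lists were chosen with earlier results of these data known. From each wider list, up to 2 called genes per direction in WT JZL184 against WT VEH were named, by largest fold change among genes of at least 10 CPM whose groups did not overlap. Some genes that this rule names are not reported here. Alternatives were DESeq2 1.42.0, other scaling, filters and thresholds, only the compared groups, length and GC offsets (loess, span 0.5), no mitochondrial genes and leaving out each mouse. Tested on simulated counts for WT JZL184 against WT VEH (11319 genes), edgeR recovered 87% of 100 genes changed by 0.75 on the log2 scale and 97% of 100 changed by 1.5. DESeq2 recovered 92% and 97%. False calls, as a share of all calls, were 4.66% in edgeR and 14.9% in DESeq2. These changes were larger than those of the 10 genes in this comparison, and far fewer genes were changed than were called in the data. The rates therefore do not give the power or error for the 10 genes. At these depths 3 counts, the floor used, were 0.0305 to 0.0433 CPM, which covers counting error only. Replicates of a group differed by more than sampling noise, with a chi-square of 22.6 to 125 per gene.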

Additional observations from a re-analysis of the deposited data

Results flagged for a closer look

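The difference between the JZL184 effects in CD and WT mice was past the call threshold, and is listed here for that, in 7 of the 10 genes, beside 25.3% positive and 26.2% negative among all tested genes. The effect in CD mice minus that in WT mice was 0.75 on the log2 scale for Fnip1, 1.61 for Fnip2, 0.47 for Flcn, 0.71 for Mtor, 0.70 for Rptor, 0.66 for Tsc1 and 0.55 for Tsc2. This difference is built from groups whose comparisons, CD VEH against WT VEH and CD JZL184 against CD VEH, were known when the genes were picked, so the 7 values are a description and not the outcome of a test. Fnip2 had 1.17 without CD JZL184 mouse E, the lowest of its 19 alternatives. No group held 4 or more mice, so the test for a single sample far from its group was not run.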

How the results depend on the processing

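No paired analysis was possible because the columns carry none of the replicate numbers of the labels. They carry letters, some of which recur between groups, but no source used here says that a letter pairs mice, and a block on the letter was not fitted. Over all 6 comparisons and the alternatives at the same threshold, genes called in the reported analysis lost their call in 67 of 553 cases (27 for the genotypes under vehicle, 16 for JZL184 in WT mice, 13 for JZL184 in CD mice, 8 for the genotypes under JZL184 and 3 for the difference of effects), and genes not called gained one in 18 of 637. The sign of the log2 fold change differed in 26 cases, 17 of them in CD JZL184 against WT VEH, where none of the genes was called, and 1 for Deptor in CD VEH against WT VEH with the length offset (0.020). The others in WT JZL184 against WT VEH were that of Deptor with the length offset (0.00624) and that of Rheb with upper-quartile factors (0.023), with only the compared groups (0.00117), with the length offset (0.038) and without 1 mouse (-0.077 to 0.018, positive without WT JZL184 mouse B or D). In CD JZL184 against WT JZL184 they were that of Fnip2 without CD JZL184 mouse E (-0.035, in a range of -0.035 to 0.61 without 1 mouse) and that of Rheb without WT JZL184 mouse A (0.033, in a range of -0.062 to 0.033).

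An adjusted p under 0.01 left 1, 4, 1 and 3 of the 10 genes in the comparisons CD VEH against WT VEH, CD JZL184 against CD VEH, WT JZL184 against WT VEH and CD JZL184 against WT JZL184, and 9, 12, 7 and 17 of the wider pathway genes, with 26 in the difference of effects, by the construction of that threshold. The length offset gave 1 of the 10 genes in the first and 0 in WT JZL184 against WT VEH, where the GC offset gave 5. With only the compared groups, the wider genes called in WT JZL184 against WT VEH were 11. The cause of these changes was not tested. Leaving out 1 mouse gave 0 to 6, 5 to 8, 0 to 4 and 3 to 6 of the 10 genes in the 4 comparisons, and 5 to 29, 16 to 35, 5 to 29 and 18 to 29 of the wider genes. Per kb of the longest transcript, the highest and lowest level differed 7.75-fold. With 2 WT VEH mice, comparisons with that group rest on few values.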
